A study of Rattus norvegicus with 12 samples.

Results

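The genes described are 36 genes of fatty acid oxidation and ketone body use, measured as transcripts in rat kidney cortex. They were taken from a fixed list of names, which was chosen with earlier results of these data known. Every probe set of the array whose annotation names a listed gene and no other gene was used. A probe set is a group of short probes on the array that is read as 1 signal. For 35 of the 36 genes there was at least 1 such probe set, 51 in all among 31042 probe sets that are not controls. The peroxisomal thiolase Acaa1a shares its probe set with Acaa1b and was not analysed here. After the 40% of probe sets with the lowest mean signal over all arrays were left out, 43 probe sets of 33 genes were tested. Fabp1 and Acadsb were too dim to pass. Where a gene had several probe sets, the brightest stands for it, and most other probe sets are given beside it.

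Fatty acids enter a cell through carriers and are joined to coenzyme A, and long chains cross into the mitochondrion bound to carnitine. There beta-oxidation shortens them through dehydrogenation, hydration, a second dehydrogenation and thiolysis, and the electrons pass through the electron transfer flavoproteins to ubiquinone. Very long and branched chains are first shortened in peroxisomes, and cytochromes of the Cyp4a family oxidise the far end of the chain. The proximal tubule, which makes up most of the renal cortex, draws much of its energy from this pathway. In rodents many of its genes are targets of the nuclear receptor PPAR alpha, which binds DNA together with a retinoid X receptor and works with coactivators such as Ppargc1a.

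The study set diabetes against its absence at 2 ages in male rats described as littermates. Diabetic (DM) rats received streptozocin, a toxin of insulin-producing cells, at 65 mg/kg into a vein, and nondiabetic (ND) rats received vehicle. The injection fell at 4 weeks of age in rats studied at 10 weeks and at 14 weeks of age in rats studied at 20 weeks. A pellet followed 3 days later, of insulin palmitate in DM rats and of palmitate vehicle in ND rats, and glucose in DM rats is labelled as 350 to 450 mg/dl over 6 weeks. Each of the 4 groups (DM and ND at 10 weeks, DM and ND at 20 weeks) had 3 arrays. The strain is not given in the sources used here. Because streptozocin, insulin pellets and diabetes always came together, their effects cannot be told apart. Which rat or rats an array stands for is not stated, so the p-values cover only the spread among these samples, which may be technical.

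The arrays correlated with each other at r between 0.941 and 0.976, in log2 signal over the probe sets that passed the filter on dim ones. The label of 10-week DM replicate 1 adds the word vehicle to its insulin pellet, and 20-week ND replicate 1 had the highest ratio of 3' to 5' signal for Gapdh (2.09, against 1.41 to 1.75 on the other arrays), a measure that goes up with RNA decay. By the same ratio for actin that array (11.2) was not the highest, as 20-week DM replicate 2 stood at 11.4 and the other arrays at 6.3 to 10. For Gapdh the 20-week DM arrays came next, at 1.6, 1.68 and 1.75. The 10-week arrays stood at 1.41 to 1.5, and 20-week ND replicates 2 and 3 at 1.42 and 1.54. Results are also given without 10-week DM replicate 1 and 20-week ND replicate 1, together called the doubted arrays. All 12 proximal tubule markers listed passed the filter on dim probe sets, and their summed signal was 183075 to 202542 in DM and 182228 to 196571 in ND rats at 10 weeks. At 20 weeks it was 191486 to 199114 in DM and 174735 to 207929 in ND rats. None of these markers was called in any of the 5 comparisons, although 3 of them had an unadjusted p under 0.05 over both ages by limma.

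Of the 33 genes tested, 15 were higher in DM than in ND rats over both ages, none was lower and 18 did not pass. "Over both ages" is the mean of the difference at 10 weeks and that at 20 weeks, and calls were made with limma at a threshold of 0.05, after Benjamini-Hochberg adjustment across the 18625 probe sets that passed the filter. In all, 2.14% of the probe sets tested were called higher and 2.34% lower. The median log2 difference of the 33 genes was 0.15, against -0.01 over all probe sets, and 28 of the 33 were above 0. Under 2 other scalings of the arrays, quantile normalization and a shift to a common median, none of the 15 changed sign. With the common median 456 of all probe sets were called higher and 283 lower, against 398 and 435 with the signals as deposited, and the median of all probe sets at 10 weeks moved to 0.089 from -0.021. Higher signals covered the entry and carnitine steps (4 of 8 tested), activation and omega-hydroxylation (2 of 2), mitochondrial beta-oxidation (5 of 12), electron transfer (2 of 3) and the peroxisome (2 of 4). None of the 3 ketone body genes was called. By probe set the count was 17 of 43, and without the doubted arrays it was 10, standing for 9 of the 15 genes. Without 20-week DM replicate 3 it was 11. Over all probe sets the 833 calls became 494 without the doubted arrays and 547 without that replicate. In bulk tissue, more cells of a type and more RNA per cell cannot be told apart.

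**Figure D1:**
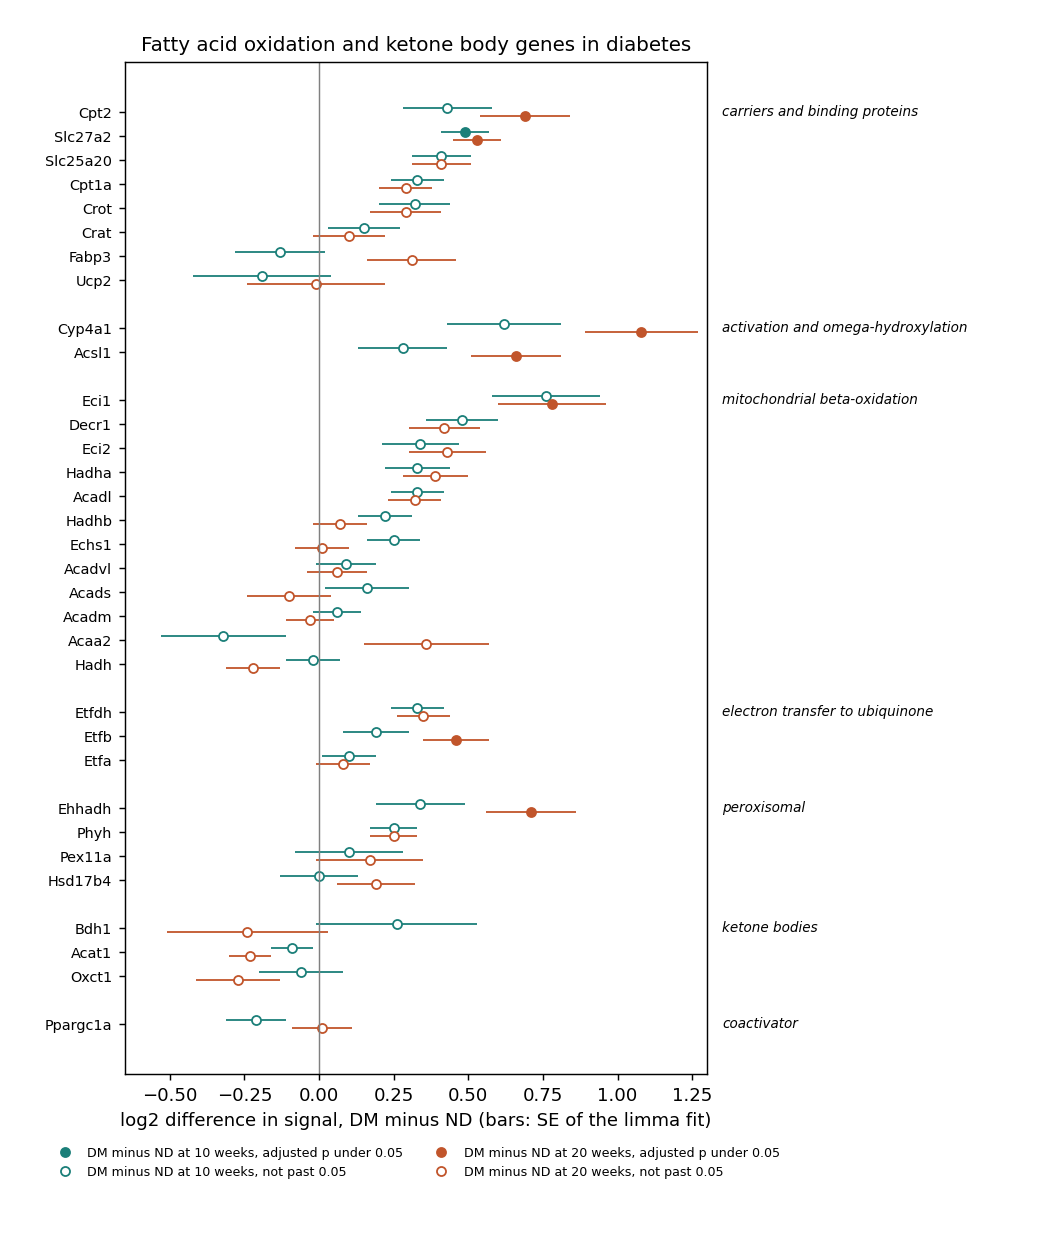
Log2 difference in signal between diabetic (DM) and nondiabetic (ND) rats for 33 genes, grouped by step of the pathway, at 10 weeks (green) and at 20 weeks (orange). Points are the limma estimates from 3 arrays a group, bars their SE, and filled points have an adjusted p under 0.05. Most carrier, isomerase and electron transfer genes lie to the right of 0 at both ages, while Acadvl, Acadm and Acads lie near 0 and Acat1 and Oxct1 lie to its left.

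The promoters of these genes are shown because the DNA element of PPAR alpha, of which many genes of the pathway are targets, is known. RefSeq promoter windows, 250 bases before to 50 bases after the annotated gene start in build GRCr8, were at hand for 32 of the 36 genes; Acadl, Decr1, Cyp4a1 and Acaa2 had no entry. They were searched on both strands for a direct repeat of AGGNCA with 1 base between the copies, spelled AGGNCANAGGNCA, and for AGGTCA alone, which can lie inside the repeat. The repeat was found in 1 of 32 windows (3.12%), that of Fabp1, against 0.415% of 33469 windows in the table. AGGTCA was found in 8 of 32 (25.0%), against 16.2% of all windows and 14.2% of those of protein-coding genes. Printed below are the 3 genes with the smallest p over both ages that have an entry (Slc27a2, Eci1 and Slc25a20), Fabp1 for its repeat, and Hadha because its window overlaps that of Hadhb. Capitals mark AGGTCA or its reverse complement TGACCT, or the whole repeat. All of these windows are on the plus strand: Slc27a2 at chr3:134257851-134258150, Eci1 at chr10:13961000-13961299, Slc25a20 at chr8:118243323-118243622, Fabp1 at chr4:104749090-104749389 and Hadha at chr6:31907551-31907850. The motif begins 76 bases before the start in Slc27a2, 94 bases before it in Eci1 and 77 bases before it in Fabp1, each on the minus strand, and the windows of Slc25a20 and Hadha hold none.
Slc27a2: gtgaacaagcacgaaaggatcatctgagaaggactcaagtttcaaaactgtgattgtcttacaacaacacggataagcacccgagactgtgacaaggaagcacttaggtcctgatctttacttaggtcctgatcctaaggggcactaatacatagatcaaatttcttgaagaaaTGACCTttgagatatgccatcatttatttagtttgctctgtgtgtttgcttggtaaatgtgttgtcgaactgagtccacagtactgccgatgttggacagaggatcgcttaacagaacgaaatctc
Eci1: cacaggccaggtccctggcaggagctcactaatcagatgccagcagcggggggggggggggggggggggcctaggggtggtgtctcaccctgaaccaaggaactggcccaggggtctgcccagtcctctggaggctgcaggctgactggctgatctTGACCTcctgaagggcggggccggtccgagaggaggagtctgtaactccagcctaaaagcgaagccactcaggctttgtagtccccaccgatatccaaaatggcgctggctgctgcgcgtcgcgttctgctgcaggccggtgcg
Slc25a20: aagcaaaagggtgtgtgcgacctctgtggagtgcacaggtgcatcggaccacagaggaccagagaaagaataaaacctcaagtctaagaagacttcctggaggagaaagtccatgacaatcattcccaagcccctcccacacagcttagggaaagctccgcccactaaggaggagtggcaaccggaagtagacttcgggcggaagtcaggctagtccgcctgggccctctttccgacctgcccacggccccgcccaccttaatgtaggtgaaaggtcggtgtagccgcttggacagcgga
Fabp1: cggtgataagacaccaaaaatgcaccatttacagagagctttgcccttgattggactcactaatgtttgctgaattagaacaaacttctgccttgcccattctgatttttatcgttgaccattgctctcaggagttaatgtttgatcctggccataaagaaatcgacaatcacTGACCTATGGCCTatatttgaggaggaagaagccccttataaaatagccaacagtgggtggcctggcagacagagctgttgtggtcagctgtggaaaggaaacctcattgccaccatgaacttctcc
Hadha: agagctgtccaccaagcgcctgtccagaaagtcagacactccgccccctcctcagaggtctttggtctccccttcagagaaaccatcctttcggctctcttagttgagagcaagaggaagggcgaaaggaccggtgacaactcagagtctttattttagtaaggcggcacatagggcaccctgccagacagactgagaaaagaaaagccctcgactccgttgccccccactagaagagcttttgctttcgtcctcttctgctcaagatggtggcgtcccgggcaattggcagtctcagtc
A match is a description of these letters and was not tested as a binding site. Of the 8 other called genes with a window, only Eci2 held AGGTCA. It also lay in the windows of Acadvl, Echs1, Hadhb and Hsd17b4, which were tested and not called over both ages. In Hadhb it lies at base 43 of the gene on the minus strand, outside the stretch shared with the Hadha window.

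Fatty acid uptake and carnitine transport were led by Slc27a2, a fatty acid transporter and very long-chain acyl-CoA synthetase of the proximal tubule. Its signals were 19263, 20929 and 17812 in DM rats against 13886, 13674 and 13761 in ND rats at 10 weeks, and 20745, 21876 and 22731 in DM rats against 13704, 15546 and 16055 in ND rats at 20 weeks. Every DM array lay above every ND array of its age, a fold difference of 1.42 over both ages (log2 0.51 ± 0.06 SE, adjusted p = 0.000455), the smallest p of the 33 genes. Next to it stood the 3 proteins of the carnitine shuttle. Cpt1a joins long-chain acyl groups to carnitine at the outer mitochondrial membrane. Cpt1a gave signals of 5941, 6569.9 and 5030.1 in DM rats against 4748, 4695 and 4428 in ND rats at 10 weeks, and 6010.3, 6308 and 6078 in DM rats against 4849, 4878 and 5364 in ND rats at 20 weeks. The groups did not overlap at either age, and the log2 difference over both ages was 0.31 ± 0.06 (adjusted p = 0.0176). A dimmer Cpt1a probe set gave -0.05 ± 0.19 and did not pass, and the mean of both gave 0.13 (adjusted p = 0.632).

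Slc25a20 carries acylcarnitine across the inner membrane. Slc25a20 gave signals of 1575, 1729 and 1406 in DM rats against 1128, 1199 and 1209 in ND rats at 10 weeks, and 1726, 1469.6 and 1671 in DM rats against 1246, 1105 and 1316 in ND rats at 20 weeks. DM and ND arrays were again apart at both ages, by the same log2 0.41 ± 0.10 at each, and the difference over both ages was 0.41 ± 0.07 (adjusted p = 0.00702). Cpt2 returns the acyl group to coenzyme A inside the mitochondrion. Cpt2 gave signals of 963, 1115 and 769 in DM rats against 812, 616 and 675 in ND rats at 10 weeks, and 1102, 1189 and 1293 in DM rats against 829.6, 665 and 729 in ND rats at 20 weeks. At 10 weeks the lowest DM array lay inside the ND range, and at 20 weeks all DM arrays were higher. The difference over both ages was 0.56 ± 0.10, or 1.48-fold (adjusted p = 0.00945).

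The other tested carriers were not called over both ages. Crot, which makes carnitine esters of medium chains in the peroxisome, came closest, with 0.30 ± 0.08 (adjusted p = 0.0606) and no overlap at either age. Crat, the carnitine acetyltransferase, gave 0.13 with a 95% interval of -0.06 to 0.31. Fabp3, a cytosolic fatty acid binding protein, gave 0.09 (interval -0.14 to 0.31). Its 20-week DM arrays (6124, 6232 and 8075) lay above the 20-week ND arrays (5963, 5206 and 5239), and its 10-week arrays overlapped. Ucp2, an anion carrier of the inner membrane, had a negative difference. Its signals were 216, 305 and 256 in DM rats against 363, 225 and 307 in ND rats at 10 weeks, and 366, 582 and 368 in DM rats against 371, 419.6 and 511 in ND rats at 20 weeks. These groups overlapped at both ages, with a log2 difference of -0.10 ± 0.16. Fabp1, the liver form of the binding protein, was below the limit for dim probe sets (a geometric mean signal of 70.9) and was not tested. Its signals were 52.4, 5.2 and 12.5 in DM against 5.5, 12.7 and 13.3 in ND rats at 10 weeks. At 20 weeks they were 50.1, 45.7 and 50.4 in DM against 25.4, 5.7 and 4.6 in ND rats, so the DM arrays were higher there, within the dim range.

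Activation and omega-hydroxylation each had 1 tested gene, and both rose. Cyp4a1, which hydroxylates the far end of fatty acids and is a classical PPAR alpha target in rodents, had the largest log2 difference of the 33 genes. Cyp4a1 gave signals of 3604, 5468 and 3642 in DM rats against 3510.0, 2542 and 2227 in ND rats at 10 weeks, and 5202, 5722 and 7312 in DM rats against 3127, 2539.6 and 2909 in ND rats at 20 weeks. At 10 weeks the lowest DM array lay just above the highest ND array, and at 20 weeks the groups were far apart. The difference over both ages was 0.85 ± 0.14, or 1.80-fold (adjusted p = 0.00384), and that at 20 weeks 1.08 ± 0.19, or 2.11-fold (adjusted p = 0.0124). Cyp4a genes are close relatives, and their transcripts may share probes. Acsl1 activates long-chain fatty acids to acyl-CoA. Acsl1 gave signals of 4454, 6885 and 4715 in DM rats against 4869.9, 4372 and 3832 in ND rats at 10 weeks, and 5935, 6849.8 and 7082 in DM rats against 3968, 4387 and 4196 in ND rats at 20 weeks. The 10-week groups overlapped, since only DM replicate 2 was above the ND arrays, and the 20-week groups did not. Its log2 difference over both ages was 0.47 ± 0.10 (adjusted p = 0.0233). A separate Acsl1 probe set was also called, at 0.59 ± 0.13 (adjusted p = 0.0246), and a further probe set was too dim to test. The call of the brightest Acsl1 probe set over both ages held under 16 of 22 other settings (adjusted p up to 0.067). Its call at 20 weeks held under 15 of 23 (adjusted p up to 0.116) and was lost when all Acsl1 probe sets were averaged.

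Within mitochondrial beta-oxidation Eci1, Decr1, Eci2, Acadl and Hadha were called. Eci1, an isomerase that shifts double bonds so that unsaturated chains can be degraded, was 1.70-fold higher over both ages (log2 0.77 ± 0.13, adjusted p = 0.00439). Its signals were 8178, 12153 and 6977 in DM rats against 5754, 5800.1 and 4283 in ND rats at 10 weeks, and 8976, 11181 and 10942 in DM rats against 5677, 5849 and 6564 in ND rats at 20 weeks. DM and ND arrays did not overlap at either age, and the 10-week DM arrays were widely spread, with replicate 2 highest. A second Eci1 probe set was too dim to test, at 1.5, 68 and 60.2 in DM against 122.7, 62.6 and 101.8 in ND rats at 10 weeks, and 95.2, 88.4 and 101.5 in DM against 87.6, 38.3 and 12.9 in ND rats at 20 weeks. With both Eci1 probe sets averaged the difference over both ages was 0.16 (adjusted p = 0.891). Decr1, a reductase for the double bonds of polyunsaturated chains, rose with it. Decr1 gave signals of 9996, 11317 and 7547 in DM rats against 6731, 7087 and 6559 in ND rats at 10 weeks, and 9510.1, 9993 and 11106 in DM rats against 7939, 7574 and 7389 in ND rats at 20 weeks. The log2 difference over both ages was 0.45 ± 0.09 (adjusted p = 0.0101), again with no overlap at either age. Eci2, a related isomerase found in mitochondria and peroxisomes, gave 0.38 ± 0.09 (adjusted p = 0.0303), a call that held under only 10 of 21 other settings (adjusted p up to 0.118). Its signals were 3849, 3744 and 3592 in DM rats against 2848, 3075 and 2938 in ND rats at 10 weeks, and 4281, 3548 and 3796 in DM rats against 2493, 2589 and 3659.7 in ND rats at 20 weeks. At 20 weeks ND replicate 3 lay within the DM range.

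Acadl is the long-chain acyl-CoA dehydrogenase, which opens a round of beta-oxidation. Acadl gave signals of 8057, 9078 and 7039 in DM rats against 6668, 6041 and 6456 in ND rats at 10 weeks, and 9257, 9269.5 and 8955 in DM rats against 7536, 7278 and 7222 in ND rats at 20 weeks. Each DM array was above all ND arrays of its age, with 0.33 ± 0.09 at 10 weeks, 0.32 ± 0.09 at 20 weeks and 0.32 ± 0.06 over both ages (adjusted p = 0.00947). Hadha is the subunit of the mitochondrial trifunctional protein that carries its hydratase and hydroxyacyl-CoA dehydrogenase. Hadha gave signals of 4189, 4646 and 3538 in DM rats against 3315, 3056 and 3423 in ND rats at 10 weeks, and 4793, 4571 and 4851 in DM rats against 3576, 4182 and 3186 in ND rats at 20 weeks. The groups did not overlap at either age, and the log2 difference over both ages was 0.36 ± 0.08 (adjusted p = 0.0237). Without the doubted arrays it was 0.35 with an adjusted p of 0.0942, and a dimmer Hadha probe set gave 0.10 ± 0.15. The mean of all its probe sets, of which 1 was too dim to test, gave -0.02 (adjusted p = 0.985).

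**Figure D2:**
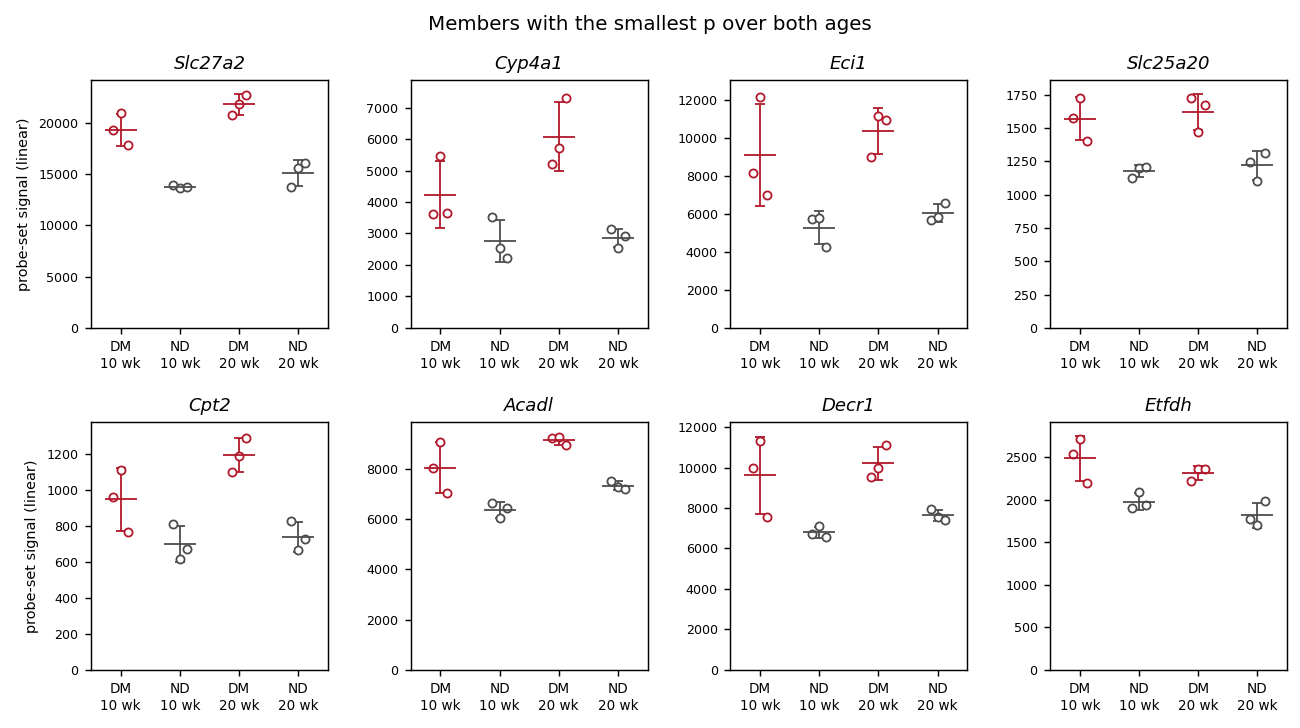
Linear probe-set signal on each of the 12 arrays for the 8 genes with the smallest p over both ages, with 3 arrays in each of the groups DM and ND at 10 and 20 weeks. Horizontal bars are group means and whiskers 1 SD. Except for 10-week Cpt2, the DM arrays (red) lie above the ND arrays (grey) of their age in each panel.

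The other acyl-CoA dehydrogenases gave small differences. Acadvl, for very long chains, gave 0.07 over both ages (interval -0.08 to 0.23), Acadm, for medium chains, 0.02 (-0.11 to 0.14), and Acads, for short chains, 0.03 (-0.19 to 0.24). For Acadm the interval allows a fold difference no larger than log2 0.14 in either direction, and its estimate was -0.06 with quantile normalization. Acadsb, for short branched chains, was too dim to test, with signals from 6.2 to 73.1. Of the enzymes that follow, Hadhb, the thiolase subunit of the trifunctional protein, gave 0.15 (0.01 to 0.28, adjusted p = 0.239). Echs1, the short-chain hydratase, gave 0.13 (-0.01 to 0.27). All 3 DM arrays of Hadhb and of Echs1 were above the ND arrays at 10 weeks, and at 20 weeks the groups of both genes overlapped.

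Hadh, the hydroxyacyl-CoA dehydrogenase for medium and short chains, was among the lowest of the 33 genes. Its signals were 8486, 9523 and 7537 in DM rats against 9259, 8319.5 and 8295 in ND rats at 10 weeks, and 7427, 7303 and 8066 in DM rats against 8087, 9347 and 9151 in ND rats at 20 weeks. At 20 weeks all DM arrays lay below the ND arrays, at 10 weeks they overlapped, and the difference over both ages was -0.12 ± 0.07 (interval -0.27 to 0.02). Acaa2, a mitochondrial thiolase, gave -0.32 ± 0.21 at 10 weeks and 0.36 ± 0.21 at 20 weeks. Its signals were 4902, 9227 and 6773 in DM rats against 9171, 8187 and 7874 in ND rats at 10 weeks, and 7729, 10135 and 11967 in DM rats against 6168, 7769.6 and 9169 in ND rats at 20 weeks. The groups overlapped at both ages, and 10-week DM replicate 1 was the lowest of the 12 arrays. A second, dimmer Acaa2 probe set had the opposite sign at each age, 0.38 ± 0.24 at 10 weeks and -0.09 ± 0.24 at 20 weeks. Over both ages it gave 0.14 ± 0.17.

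Partners in a reaction or a complex differed in their calls, which does not show that they differed from each other. The ratios that follow were chosen after the values were seen and are given without a test. The log2 ratio of Acadl to Acadvl was higher in DM than in ND rats by 0.25 over both ages. It spanned 1.27 to 1.40 in DM against 0.95 to 1.20 in ND rats at 10 weeks, and 1.33 to 1.61 in DM against 1.20 to 1.26 in ND rats at 20 weeks. The ratio of Acadl to Acadm was higher by 0.31, and its groups also did not overlap at either age. For Acadl over Acads the difference was 0.29, with overlap at 10 weeks. The genes of the trifunctional protein, Hadha and Hadhb, lie head to head, with 300 bases between their first bases, and their promoter windows share 200 bases. The Hadha to Hadhb ratio was 0.21 higher in DM rats, from -1.36 to -1.14 in DM against -1.43 to -1.27 in ND rats at 10 weeks. At 20 weeks it ran from -1.11 to -0.95 in DM against -1.58 to -1.10 in ND rats, so the groups overlapped at both ages.

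**Figure D3:**
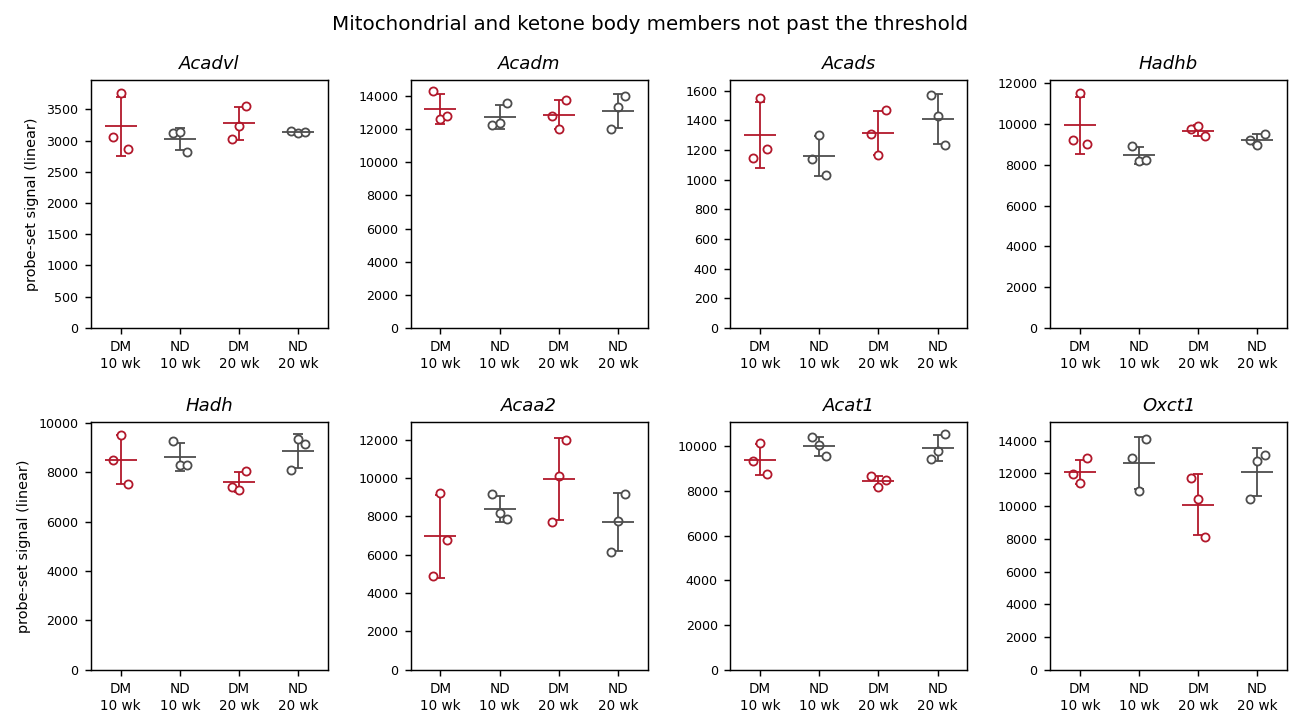
Linear probe-set signal on each of the 12 arrays for 8 mitochondrial and ketone body genes that did not pass the threshold over both ages, in DM and ND rats at 10 and 20 weeks (3 arrays each). Horizontal bars are group means and whiskers 1 SD. Groups overlap in most panels, while Acat1 and Hadh are lower on all DM arrays at 20 weeks.

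Electrons from these dehydrogenases pass through a flavoprotein of the subunits Etfa and Etfb to its oxidoreductase Etfdh. Etfdh rose, with 0.34 ± 0.07 over both ages (adjusted p = 0.0123). Its signals were 2541, 2714 and 2200.2 in DM rats against 1902, 2094 and 1935 in ND rats at 10 weeks, and 2223, 2360.3 and 2354 in DM rats against 1770.0, 1701 and 1983 in ND rats at 20 weeks. No DM array overlapped the ND arrays of its age. Etfb also rose, by 0.33 ± 0.08 (adjusted p = 0.0326), but this call held under only 8 of 21 other settings (adjusted p up to 0.0918). Its signals were 9238, 10520.1 and 7971 in DM rats against 8434, 8308 and 7396 in ND rats at 10 weeks, and 10356, 9094 and 10723 in DM rats against 8082, 7173 and 6706 in ND rats at 20 weeks. The 10-week groups overlapped and the 20-week groups did not. Etfa gave 0.09 (interval -0.04 to 0.23) and was not called. The Etfb to Etfa ratio was 0.23 higher on the log2 scale in DM rats, with overlap at 10 weeks, and this pair was likewise chosen after its values were seen.

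In the peroxisome 2 of 4 tested genes rose. Ehhadh, the bifunctional hydratase and dehydrogenase of peroxisomal beta-oxidation, gave 0.53 ± 0.11 over both ages (adjusted p = 0.0135). Its signals were 3646, 4892 and 3689 in DM rats against 2939, 3420.5 and 3199 in ND rats at 10 weeks, and 5167, 5534 and 6833 in DM rats against 3135, 3264 and 4325 in ND rats at 20 weeks. The groups did not overlap, and the difference was 0.34 ± 0.15 at 10 weeks and 0.71 ± 0.15 at 20 weeks. Phyh, which starts the alpha-oxidation of the branched phytanic acid, had the smallest called difference, 0.25 ± 0.05 (adjusted p = 0.019). Its signals were 13061, 13076 and 12964 in DM rats against 10128, 11603 and 11153 in ND rats at 10 weeks, and 15302, 13562 and 13700.0 in DM rats against 11723, 11292 and 12658 in ND rats at 20 weeks. All DM arrays were above the ND arrays of their age, and a second Phyh probe set was called too, at 0.23 ± 0.06 (adjusted p = 0.037). Hsd17b4, the other peroxisomal bifunctional enzyme, gave 0.09 (interval -0.10 to 0.29), and Pex11a, a protein of peroxisome division, 0.13 (-0.14 to 0.41), while a dimmer Pex11a probe set gave -0.13 ± 0.41. Both overlapped at each age.

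None of the 3 ketone body genes was called. Over both ages Oxct1 and Acat1 had negative differences under all 3 scalings of the arrays, while at 10 weeks both turned positive with the common median. Oxct1, which activates acetoacetate for use as fuel, had the lowest difference of the 33 genes. Its signals were 11930.0, 11422 and 12909.8 in DM rats against 12930.4, 10947 and 14092 in ND rats at 10 weeks, and 11742, 10425 and 8107 in DM rats against 10417, 12776 and 13106 in ND rats at 20 weeks. The groups overlapped at both ages, with -0.17 ± 0.10 over both ages (interval -0.38 to 0.04). Acat1, the mitochondrial acetoacetyl-CoA thiolase, gave -0.16 ± 0.05 (interval -0.28 to -0.05, adjusted p = 0.11). Its signals were 9334, 10139.7 and 8753 in DM rats against 10416, 10051 and 9561 in ND rats at 10 weeks, and 8668, 8164 and 8488 in DM rats against 9443, 9807 and 10549 in ND rats at 20 weeks. All 20-week DM arrays lay below the ND arrays, and the 10-week arrays overlapped. With quantile normalization Acat1 was called lower (-0.22 ± 0.05, adjusted p = 0.0233), and a dimmer Acat1 probe set gave 0.00 ± 0.06. Bdh1, which converts acetoacetate and beta-hydroxybutyrate into each other, gave 0.01 with a wide interval of -0.40 to 0.42, and its dimmer probe set gave 0.17 ± 0.21. Its 10-week DM replicate 1, at 591, stood above the other 11 arrays, which ran from 250.4 to 464.

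Ppargc1a, the coactivator, was not called. Its signals were 1699, 2127 and 1772 in DM rats against 2203, 2200.0 and 2035 in ND rats at 10 weeks, and 1842, 1689.5 and 2092 in DM rats against 1875, 1904 and 1804 in ND rats at 20 weeks. The groups overlapped at both ages, and the log2 difference over both ages was -0.10 ± 0.07 (interval -0.26 to 0.05). At 10 weeks it was -0.21 ± 0.10 and at 20 weeks 0.01 ± 0.10.

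Taken at 10 weeks alone, 1 of the 33 genes was called, Slc27a2 (0.49 ± 0.08, adjusted p = 0.0291), where 0.123% of all probe sets were called higher. A further 15 genes had an unadjusted p under 0.05 by limma, as had 2021 of all 18625 probe sets. At 20 weeks 7 genes were called higher, where 1.22% of all probe sets were: Slc27a2 (0.53 ± 0.08), Cyp4a1 (1.08 ± 0.19), Ehhadh (0.71 ± 0.15), Cpt2 (0.69 ± 0.15), Acsl1 (0.66 ± 0.15), Eci1 (0.78 ± 0.18) and Etfb (0.46 ± 0.11). None was called lower at either age, where 0.183% of all probe sets were at 10 weeks and 1.62% at 20 weeks. In 16 of 33 genes all 3 DM arrays exceeded all 3 ND arrays at 10 weeks, against 7.47% of all probe sets, and in 16 at 20 weeks, against 10.1%. In 12 genes this held at both ages, against 2.13% of all probe sets. Arrays of DM rats lay wholly below those of ND rats in 0 genes at 10 weeks (9.52% of all probe sets) and in 2 at 20 weeks (10.9%), Hadh and Acat1, and in none at both ages (2.59%).

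The calls at 1 age depended on single arrays. At 10 weeks the Slc27a2 call was lost without 10-week ND replicate 1 or 2, 10-week DM replicate 1 or 2 or 20-week DM replicate 2 (adjusted p up to 0.128, with a log2 difference of 0.43 to 0.49). At 20 weeks 8 probe sets of 43 were called with all arrays. Only 1 was called without 20-week ND replicate 2 or DM replicate 3, and 2 without 20-week DM replicate 2. Over all probe sets the 529 calls at 20 weeks became 205, 194 and 213 without these same 3 arrays, in that order. Of the 43 probe sets 4 were called without 20-week DM replicate 1 or ND replicate 1. Without 20-week ND replicate 3 or 10-week ND replicate 2 it was 5 of the 43. Over all probe sets these left-out arrays gave 312, 399, 353 and 414 calls, in that order. Without the doubted arrays no gene was called at 10 weeks (19 probe sets at an unadjusted p under 0.05) and 2 probe sets were called at 20 weeks. Of all probe sets, 10 were called at 10 weeks and 332 at 20 weeks without these arrays.

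Whether the difference itself changed with age was tested as an interaction, the DM minus ND difference at 20 weeks minus that at 10 weeks. None of the 33 genes was called, and 1 had an unadjusted p under 0.05 by limma, against 0 called and 1480 at that level of the 18625 probe sets. That gene was Acaa2 (0.68 ± 0.30, adjusted p = 0.607), and its second probe set had the opposite sign (-0.47 ± 0.35). Cyp4a1 gave 0.46 ± 0.27, Acsl1 0.38 ± 0.21 and Ehhadh 0.37 ± 0.21, and for Slc25a20 the estimate was 0.00 with an interval of -0.32 to 0.32. With the common median the interaction of all probe sets had a median of -0.139, and 10 of the 33 genes changed sign in this comparison under 1 of the scalings or both. Between 20-week and 10-week ND rats no gene was called either (0 of 18625 probe sets, 1603 at an unadjusted p under 0.05). Of the 33 genes 2 were at that level, Ucp2 (0.55 ± 0.23) and Acadl (0.20 ± 0.09). The second Ppargc1a probe set was at that level too (-0.40 ± 0.15), while its brightest gave -0.20 ± 0.10 and was not.

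The DM arrays were not equally shifted. Against the mean of the ND arrays of their age, the median deviation of the 33 genes was 0.21, 0.32 and 0.10 in 10-week DM replicates 1, 2 and 3. In the 20-week DM replicates it was 0.20, 0.29 and 0.21. Among 10-week DM arrays replicate 2 was highest in 27 of 33 genes and replicate 3 lowest in 21. At 20 weeks the highest array was replicate 1, 2 and 3 in 10, 8 and 15 genes.

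**Figure D4:**
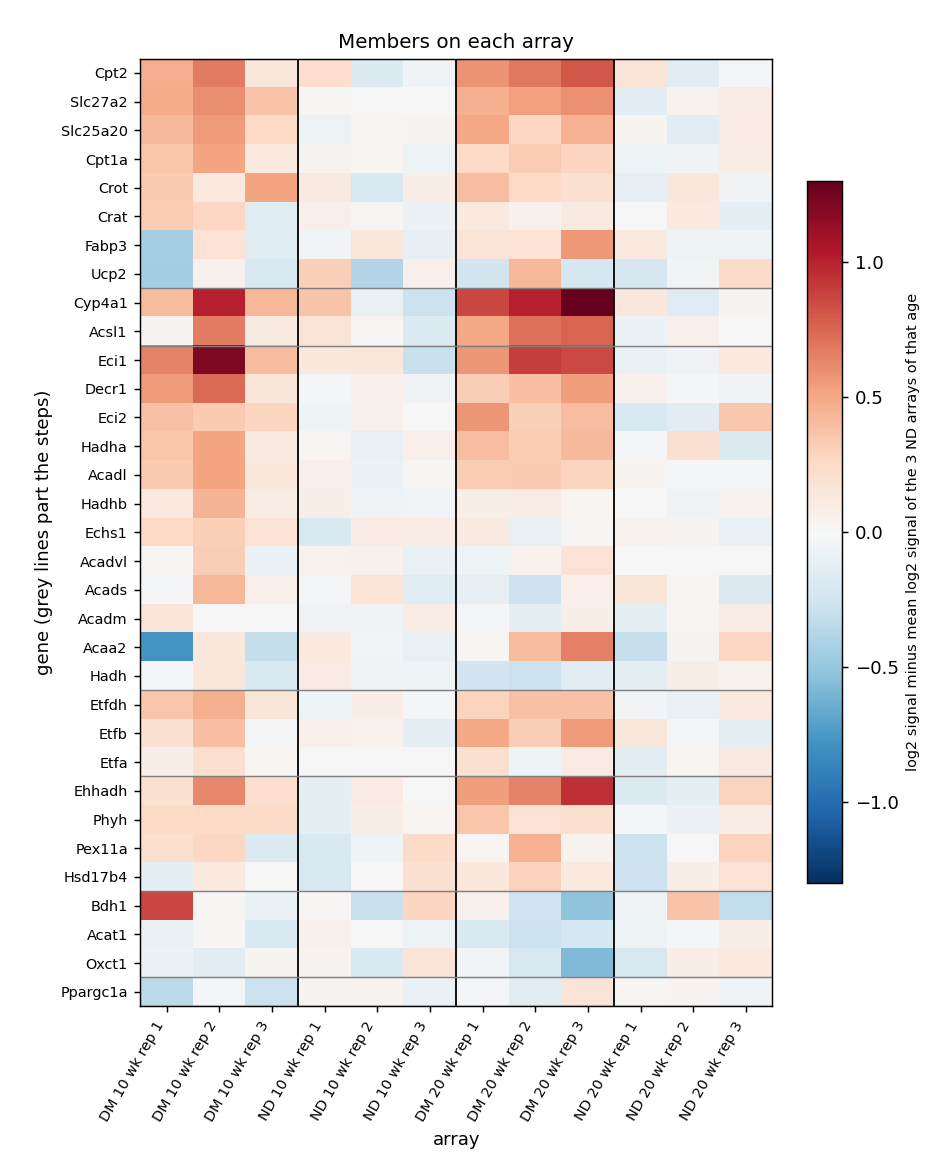
Log2 signal of 33 genes (rows, grouped by step) on the 12 arrays (columns), each minus the mean of the 3 ND arrays of the same age. Red is above and blue below that mean, and the colour scale ends at 1.3. The rows of Cpt2, Slc27a2, Slc25a20, Cyp4a1, Eci1 and Decr1 are red on each DM array, the 10-week DM replicate 2 column is the reddest of its group, and the Acat1 and Oxct1 rows turn blue in 20-week DM rats.

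Genes outside the list that belong to the same pathway or its control were taken from a list of 69, of which 60 had a probe set of their own and 53 were tested. Over both ages 7 were higher and 2 lower, a share of calls to be read against 2.14% and 2.34% of all probe sets. By probe set 7 of 65 were higher and 3 lower. These 3 include a dimmer Pex16 probe set (-0.71 ± 0.17, adjusted p = 0.0388), while the brightest of Pex16 gave 0.25 ± 0.13. The 4 genes with the smallest p were Plin2, Acsl3, Pdk4 and Amacr. Plin2, which coats lipid droplets, gave 0.53 ± 0.07 (adjusted p = 0.0011), and Pdk4, a kinase that shuts off pyruvate dehydrogenase, gave 1.44 ± 0.23 (adjusted p = 0.00416), while another Pdk4 probe set gave -0.62 ± 0.51. Acsl3, an acyl-CoA synthetase linked to lipid droplets, was lower, at -0.72 ± 0.09 (adjusted p = 0.00119). Acsl3 signals were 826, 731 and 929.7 in DM against 1187, 1292 and 1384 in ND rats at 10 weeks, and 648, 685 and 832 in DM against 1189, 1440.0 and 1134 in ND rats at 20 weeks. It was thus below the ND arrays on every DM array, opposite in direction to Acsl1.

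Amacr, a racemase for branched-chain acyl-CoA in peroxisomes and mitochondria, rose by 0.45 ± 0.07 (adjusted p = 0.00438). Hacl1, which cleaves chains in alpha-oxidation after Phyh, rose by 0.61 ± 0.11 (adjusted p = 0.00728). Ech1, another enzyme of double bond rearrangement (0.54 ± 0.11), Angptl4, an inhibitor of lipoprotein lipase (1.38 ± 0.23), and Cpt1b, the muscle form of Cpt1a (0.63 ± 0.16), rose as well. Ppard, a nuclear receptor related to PPAR alpha, was lower (-0.60 ± 0.12, adjusted p = 0.0141). At 10 weeks none of the 53 was called (17 at an unadjusted p under 0.05 by limma), and at 20 weeks Plin2, Angptl4 and Pdk4 were higher and Acsl3 lower. Ppara itself was too dim to test.

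Fat cells also carry genes of this pathway, and of their 7 measured markers 3 were bright enough to test. The summed signal of the 7 was 737 to 1615 in DM against 276 to 940 in ND rats at 10 weeks, and 1086 to 1966 in DM against 612 to 818 in ND rats at 20 weeks. Cidec ranged from 258 to 953 in DM against 4.5 to 569 in ND rats at 10 weeks. Fabp4 read 336, 206 and 230.3 in DM against 1.7, 80.8 and 85.5 in ND rats at 10 weeks, with a difference over both ages of 2.83 ± 0.78 (adjusted p = 0.063), and none of the markers was called. At 20 weeks Fabp4 read 572, 445 and 229 in DM against 104, 109 and 51.8 in ND rats, so DM arrays were higher at both ages. Adipoq, which defines fat cells, read 142 to 245 in DM and 158 to 203 in ND rats at 10 weeks. At 20 weeks it read 195, 214 and 196 in DM against 141, 158 and 154 in ND rats, every DM array above every ND array (0.42 ± 0.21, adjusted p = 0.343). Plin1, Lep, Cfd and Ucp1 were below the limit for dim probe sets. The part of fat cells in the results above was not tested. Markers of skeletal muscle, liver and adrenal gland were all too dim to test. Of 5 tested podocyte markers 2 were lower in DM rats over both ages (Nphs1, -0.48 ± 0.10, and Ptpro, -0.40 ± 0.10), and of 5 endothelial markers 1 was (Vwf, -1.78 ± 0.34). Of 7 collecting duct markers Aqp2 was higher (0.55 ± 0.09) and Atp6v1b1 lower (-0.37 ± 0.09). None of 5 thick limb and distal tubule markers (2 at an unadjusted p under 0.05 by limma) and none of 4 leukocyte markers (2 at that level) was called over both ages.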

How the data were processed

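Transcripts were measured in kidney cortex of 4 groups of male rats on 12 arrays, 3 a group, each with 1 sample in 1 colour. The authors deposited 1 linear intensity per probe set and array. The submitters' processing notes name GCOS, with no version; how it summarised probes is not given in the sources used here. On every array the mean signal after trimming 2% at each end was 500.2, so the authors had scaled the arrays, and each difference is relative to the bulk of the transcripts.

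The table has 31099 probe sets, 57 of them controls that were dropped. Before log2, 424 signals under 1 were raised to 1. The dimmest 40% were left out (limit: geometric mean 70.9), and 18625 were tested with limma 3.58.1 in R 4.3.3: 4 group means, eBayes with an intensity trend, 8 residual degrees of freedom, two-sided, Benjamini-Hochberg over all probe sets. Intervals are 95% intervals of that fit, and the number of arrays limits their precision. The test was checked on simulated data.

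Gene names came from the array annotation, with symbols brought up to date from RefSeq (names only): 20826 probe sets named 1 gene, 436 several and 9780 none here. Values of every array are printed for genes called in any comparison and for the lowest differences over both ages (4 by rule, 5 with a tie), and otherwise ranges or estimates; Acaa2 and Fabp1, printed likewise, were added after their values were seen; the related gene list is counted and its 4 smallest p named. The other related genes and the markers named were singled out after their values were seen. The 36 genes, the related genes and the cell type markers were chosen with earlier results of these data known. Alternatives were 2 scalings, 2 filters, an offset of 16 before log2, no intensity trend, the replicate number as a block, the Gapdh ratio as a covariate, 2 groups fitted alone, a gene's probe sets averaged, each array left out in turn and both doubted arrays left out.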

Additional observations from a re-analysis of the deposited data

How the results depend on the processing

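Over both ages the 17 called probe sets became 9 without the intensity trend, 10 without the doubted arrays and 11 to 16 with 1 array left out. Over all probe sets the 833 calls became 502 without the trend and 494 without the doubted arrays. Under the other settings run, the count for the list stayed within 1.5 times. There no gene of the list was called lower except Acat1 with quantile normalization. At 10 weeks the 1 call became 0 with no filter on dim probe sets, without the trend and with the replicate block. It was also 0 without the doubted arrays and with the 2 groups fitted alone. Over all probe sets the 57 calls became 45, 7, 32, 10 and 9 in these settings, in that order. With 1 array left out the list had 0 to 2 calls at 10 weeks. At 20 weeks the 8 calls became 2 without the trend, 2 without the doubted arrays and 1 to 9 with 1 array left out. Over all probe sets the 529 calls became 191 without the trend and 332 without the doubted arrays. With the Gapdh ratio as a covariate 6 of the 7 genes called at 20 weeks kept their call, and the 529 calls became 509. The interaction and the age comparison gave 0 calls in the list under all settings. Hadha turned to -0.02 (adjusted p = 0.985) over both ages with the mean of all its probe sets, 1 of which is below the limit for dim probe sets, and Eci1 (0.16) and Cpt1a (0.13) lost their calls there. Over both ages 7 genes (Slc27a2, Cyp4a1, Slc25a20, Cpt2, Acadl, Decr1 and Ehhadh) kept their call under every setting run for them. Etfb kept it in 8 of 21 settings and Eci2 in 10 of 21. These 7 genes have 1 probe set each, so the averaging of probe sets did not apply to them. Of the 5 called genes with several probe sets, averaging left 1 called, 3 not called and 1 reversed in sign. At 20 weeks Acsl1 and Eci1 were the called genes with several probe sets, and both lost their call with averaging. Crot was called under 4 settings (adjusted p = 0.0409 to 0.0476). The cause of these changes was not tested beyond the probe sets and arrays that each setting leaves out. With the replicate number as a block 16 probe sets were called over both ages, 0 at 10 weeks and 6 at 20 weeks. Same-numbered arrays of different groups had deviations correlated at -0.151 to 0.149, above 0.1 in 4 of 18 pairs. Pairs with different numbers ran from -0.195 to 0.247, above 0.1 in 5 of 36. With 3 arrays a group, whether the numbers pair the samples cannot be told from these values. The signal over background limits Fabp1, Acadsb and the probe sets below the limit for dim ones.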
